A study of Mus musculus with 4 samples.

Results

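The genes examined here encode the nuclear part of the mitochondrial respiratory chain: the subunits of complexes I to IV and of ATP synthase (complex V). They were taken by symbol, as every single-gene row of the expression table whose name begins with Ndufa, Ndufb, Ndufc, Ndufs, Ndufv, Sdha, Sdhb, Sdhc, Sdhd, Uqcr, Cox4i, Cox5, Cox6, Cox7, Cox8 or Atp5. This gave 92 of the 22849 symbols in the table: 37 named for complex I, 4 for complex II, 7 for complex III, 18 for complex IV and 15 for complex V. The remaining 11 (Ndufaf1 to Ndufaf7, Sdhaf1, Sdhaf2, Atp5s and Atp5sl) share the prefixes but are assembly factors or accessory proteins, and they were kept apart. The rows for Uqcrq and Ndufv1 also name a neighbouring gene and were left out.

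The libraries came from liver of male C57BL/6 mice kept on a high fat diet (60% fat) for 12 weeks. In 2 libraries (vehicle) the diet held no compound, and in the other 2 it held UAB126, known here only by that code, at 1.2 g per kg of diet. All mice therefore shared the obesogenic diet, and no lean group was analysed here. Nothing states whether the 2 libraries of a group came from separate animals, so p-values measure only the spread between these libraries, which may be technical. Values are FPKM, that is, fragments per kilobase of transcript scaled to the number mapped, as the authors computed them, and differences are on the log2(FPKM + 1) scale, which understates changes of genes near 1 FPKM. A gene was tested if its mean was at least 1 FPKM, which 88 of the 92 met. The test was limma's moderated test over all 10786 such symbols, called at a Benjamini-Hochberg adjusted p under 0.05.

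The respiratory chain passes electrons from NADH through complex I and from succinate through complex II to ubiquinone, then through complex III, cytochrome c and complex IV to oxygen. Complexes I, III and IV pump protons, and ATP synthase uses the gradient to make ATP. A few core subunits are encoded by mitochondrial DNA, and the many small subunits described here are encoded in the nucleus, made in the cytosol and imported. In liver the chain runs on electrons from fatty acid oxidation and the citric acid cycle.

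Respiratory chain transcripts were abundant in these livers, with a median over the tested members of 206 FPKM in vehicle replicate 1, 310 FPKM in vehicle replicate 2, 174 FPKM in UAB126 replicate 1 and 231 FPKM in UAB126 replicate 2. Vehicle replicate 2 was the highest and UAB126 replicate 1 the lowest library, and the other two lay between them with the UAB126 library above the vehicle one. The median of all tested genes lay between 8.81 and 9.33 FPKM in the 4 libraries. By the step size of low values, vehicle replicate 2 had the smallest depth (0.404 of that of UAB126 replicate 1, the deepest library), and vehicle replicate 1 and UAB126 replicate 2 lay at 0.691 and 0.703. Total counts are not in the deposited values, and the part of depth in these levels was not tested. Hepatocyte markers were present: Ttr ranged from 19625 to 44092 FPKM, whereas Alb was listed at 0 in 3 of the 4 libraries, an exact 0 that can be a failed estimate. Of the 6 hepatocyte markers listed, 4 (Apoa1, Ttr, Asgr1 and Serpina1a) lay lower in both UAB126 libraries than in either vehicle library. This held for 26.9% of all tested genes. Cps1 overlapped between groups. The median difference of the 6 was -0.80 as deposited and -0.22 after quantile normalization, where Cps1 and Ttr turned positive (0.55 and 0.08). With the trend of the longest transcript removed it was -0.46. The 5 Kupffer cell markers with a row had a median difference of 0.45 and the 5 endothelial ones 0.35. All of these were positive as deposited and after quantile normalization or removal of a length trend. Without vehicle replicate 1 the Kupffer and endothelial medians were -0.27 and 0.00087. Alas2, the heme synthesis enzyme of red cell precursors, lay at 59.8 and 70.8 FPKM in the UAB126 libraries against 164 and 189 FPKM in the vehicle ones and did not pass (adjusted p = 0.137 by limma). The part of these cell types in the values of the members was not tested.

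No respiratory chain gene passed the test between UAB126 and vehicle (0 of 88 by limma at an adjusted p under 0.05, where 0.139% of all tested genes passed, 0.0464% higher and 0.0927% lower), and the lowest adjusted p among them was 0.275, for Ndufb3. At an unadjusted p under 0.05 there were 6 members, all lower with UAB126, against 8.38% of all tested genes lower and 5.03% higher at that level. These were Cox8b, Cox6a2, Cox7a1 and Cox7c of complex IV, Ndufb3 of complex I and the assembly factor Ndufaf2. The median difference over the 88 members was -0.36 (76 negative), beside -0.03 over all tested genes, but it was -0.05 after quantile normalization (48 negative) and -0.01 once the trend of each library with the longest transcript was removed (45 of 87 negative). With the trend of the median coding transcript removed instead, an alternative chosen after seeing the data, it was -0.17 (58 of 87 negative). Both UAB126 libraries lay below both vehicle libraries for 21 members, where 26.9% of all tested genes did so, and above them for 3 members, where 22.7% did. The count of lower members is thus near the share over all tested genes, and that of higher members is below it. Beside other short transcripts (under 1500 bases) the separated members were fewer. Of 56 such members 14 lay lower and 1 higher, against 545 and 81 of 1231 other genes of that length. Of the 393 of those others at 50 FPKM or more, 207 lay lower and 11 higher.

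The 2 libraries of one treatment differed from each other by more than the treatments did. Within the vehicle pair the second library read higher for 83 of 88 members, with a median gap of 0.57. Within the UAB126 pair the second library also read higher for 83 of 88, with a median gap of 0.61. Over all tested genes the same medians were 0.04 and 0.05. For 64 of the 88 members vehicle replicate 2 was the highest library and UAB126 replicate 1 the lowest, an order found in 22.8% of all tested genes. Comparing like-numbered libraries gave medians of -0.40 for the first pair and -0.35 for the second, while UAB126 replicate 2 against vehicle replicate 1 gave 0.24 and UAB126 replicate 1 against vehicle replicate 2 gave -0.94. The direction of the members' difference therefore depended on which libraries were paired.

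**Figure D1:**
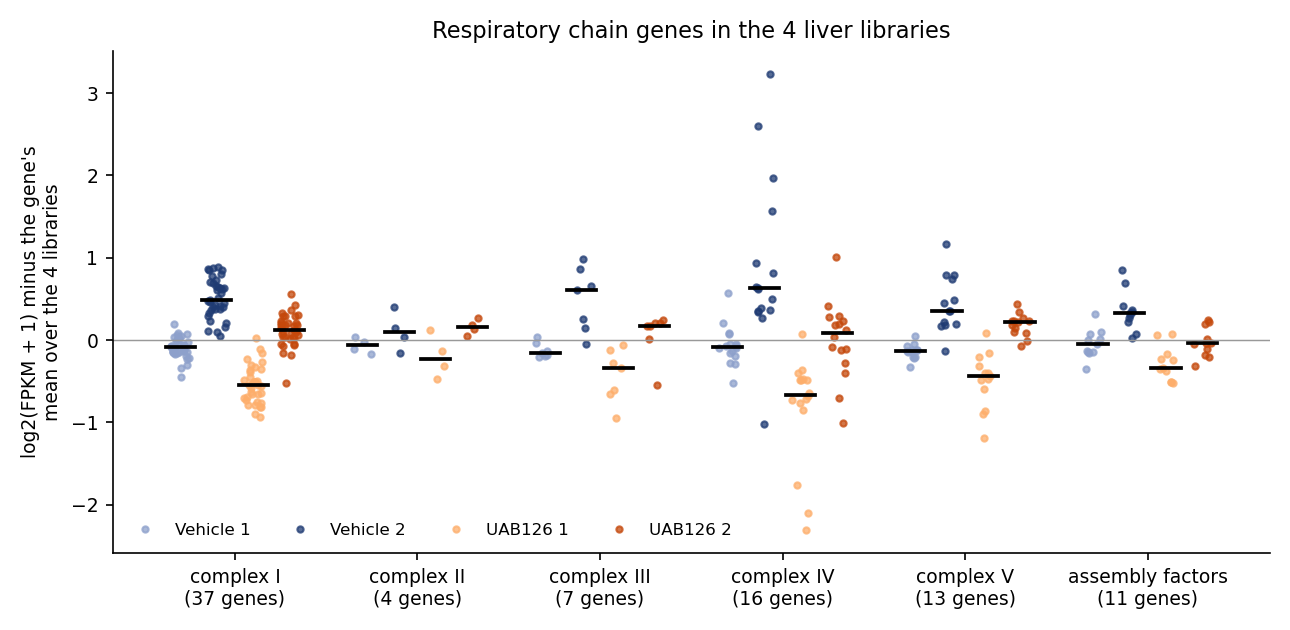
Each point is 1 of the 88 tested genes in 1 library, as log2(FPKM + 1) minus that gene's mean over the 4 libraries, grouped by complex, and black bars are medians. Values are as deposited: vehicle replicate 2 has the highest median in complexes I, III, IV and V and among the assembly factors, UAB126 replicate 1 has the lowest median in all 6 groups, and the 4 medians lie closest together in complex II.

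Members were set beside other genes with transcripts of like length. Most respiratory chain subunits are small proteins from short messages, and the longest annotated transcripts of 87 tested members spanned 360 to 4715 bases with a median of 1141, against 3220 for all tested genes. Among members under 1500 bases the median difference was -0.43 (56 genes), and among the 1231 other genes of that length it was -0.39, or -0.53 for the 393 of them with a mean of at least 50 FPKM. Among members of 1500 bases or more the median was -0.18 (31 genes), beside -0.03 for the 6436 others and -0.25 for the 996 others at 50 FPKM or more. The library order was shared as well: vehicle replicate 2 was highest and UAB126 replicate 1 lowest for 44 of 56 short members, for 680 of 1231 other short genes and for 294 of the 393 that were also abundant.

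In bands of length the comparison depended on the level of the other genes and on the measure of length. By the longest transcript, the 3 members from 300 to 500 bases (Cox8b, Cox7a1 and Ndufa1) had a median of -2.04, against -0.32 for 30 others and -0.89 for the 8 of those at 50 FPKM or more. From 500 to 700 bases the median was -0.44 for 15 members and -0.66 for 88 others, and from 700 to 1000 bases it was -0.62 for 20 members and -0.50 for 322 others. From 1000 to 1500 bases the values were -0.33 and -0.32, and from 1500 to 3000 bases -0.12 and -0.11. In the band from 3000 to 5000 bases the signs differed, with -0.36 for 9 members and 0.05 for 3521 others (-0.18 for the 366 at 50 FPKM or more). These 9 are long only by their longest transcript, and by the median coding transcript this band held 0 members. Cox6c, Ndufb7 and Ndufb5, for example, had median coding transcripts of 606, 623 and 625 bases. By the median coding transcript, members lay below all others in the shorter bands and near the abundant ones: -0.48 (13 members) against -0.21 and -0.52 from 300 to 500 bases, -0.52 (27 members) against -0.18 and -0.52 from 500 to 700 bases, and -0.36 (21 members) against -0.21 and -0.40 from 700 to 1000 bases. By the longest transcript, each member's difference minus the median of the other genes in its band had a median of -0.05, with 40 above and 47 below. Across the 87 members the difference had a Spearman correlation of 0.36 with the longest transcript and 0.46 with the median coding transcript, a description across genes that share the 4 libraries.

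**Figure D2:**
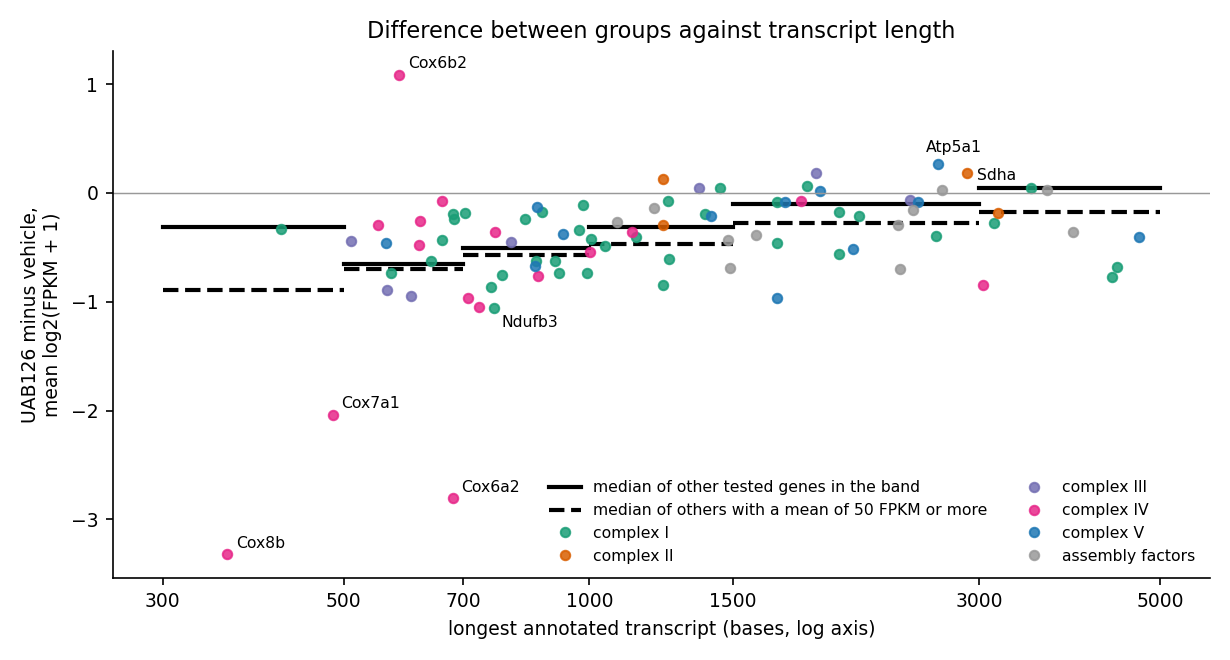
Each point is a tested gene, with the length of its longest annotated transcript on a log axis against the UAB126 minus vehicle difference in mean log2(FPKM + 1), as deposited. Solid lines are medians of all other tested genes in each length band and dashed lines those with a mean of at least 50 FPKM: members lie on both sides of the solid lines (40 above and 47 below), Cox8b, Cox6a2 and Cox7a1 lie far below them and Cox6b2 far above.

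By complex, the median difference as deposited was lowest in complex IV and nearest 0 in complex II. The complex IV median includes tissue forms: Cox8b (-3.32), Cox6a2 (-2.80), Cox7a1 (-2.04), Cox4i2 (-1.05) and Cox6b2 (1.09). Without these forms the middle complex IV gene was Cox7a2l, at -0.36, less negative than the medians of complexes I and III. With the trend of the longest transcript removed, the middle gene without them was Cox5a, at 0.10. Complex I stood at -0.41 (-0.07 after quantile normalization, -0.05 with the trend of the longest transcript removed) and complex IV at -0.51 (-0.15 and -0.06). Complex III stood at -0.44 as deposited and -0.03 after quantile normalization, and turned positive (0.06) with the length trend removed. Complex V stood at -0.34 and turned positive under both (0.08 and 0.07). Complex II, with 4 genes, stood at -0.03 and also turned positive under both (0.33 and 0.13). The assembly factors stood at -0.29, -0.18 and -0.16. With the trend of the median coding transcript removed, complexes I, III, IV and V stood at -0.19, -0.21, -0.30 and -0.09. With 1 library left out, the medians ranged from -0.75 to -0.06 in complex I, from -0.83 to -0.01 in complex III, from -0.9991 to -0.09 in complex IV, from -0.60 to 0.09 in complex V and from -0.24 to 0.09 in complex II. In complexes I, III, IV and V they were nearest 0 or positive without vehicle replicate 2 or UAB126 replicate 1, and lowest without vehicle replicate 1 or UAB126 replicate 2. Of 87 members with a value under these scalings and under removal of a trend with the median coding transcript, 38 were negative under all 4, 11 were positive under all 4 and 38 took both signs. All 21 members whose UAB126 libraries lay below both vehicle libraries, and all 3 that lay above, kept their sign under the 4 scalings. They were picked for that separation from the same values, which fixes their sign as deposited, so this is no separate support.

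**Figure D3:**
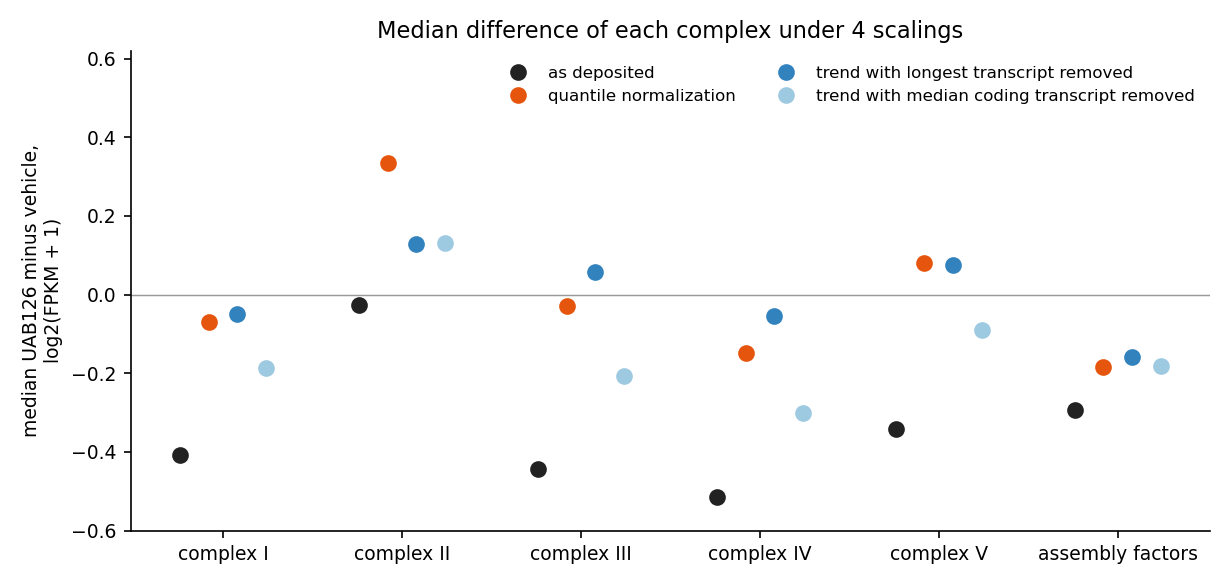
Median UAB126 minus vehicle difference in log2(FPKM + 1) of the tested genes of each complex under 4 scalings of the libraries. Complexes I and IV and the assembly factors stay below 0 under all 4, complex III turns positive when the trend with the longest transcript is removed, complex V when that trend is removed or quantiles are equalized, and complex II under every scaling but the deposited one. The medians of complex IV include its tissue forms.

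Complex I, the NADH dehydrogenase, gave the largest group, and 34 of its 37 genes had a negative difference as deposited (21 after quantile normalization and 21 with the length trend removed). Ndufb3, a small accessory subunit of the membrane arm (mm10 chr1:58586384-58595964, plus strand), read 205 and 326 FPKM in the vehicle libraries and 123 and 124 FPKM in the UAB126 libraries. Both UAB126 values lay below both vehicle values, and they lay closer to each other than the vehicle pair did. The difference was -1.06 with a standard error of 0.29 (limma adjusted p = 0.275), and it was -0.68 after quantile normalization and -0.54 with the length trend removed. Ndufs6, an accessory subunit that carries zinc, read 359 and 676 FPKM with vehicle and 223 and 327 FPKM with UAB126.

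Ndufa4 was the most abundant gene named for complex I, although its protein is now counted as a subunit of complex IV. It read 1362 and 2461 FPKM with vehicle and 788 and 1320 FPKM with UAB126, a difference of -0.84 with a standard error of 0.44 (limma adjusted p = 0.433). The groups did not overlap, although vehicle replicate 1 and UAB126 replicate 2 lay close together. Its low-level relative Ndufa4l2, known as a hypoxia-responsive gene, read 3.31 and 5.39 FPKM against 1.58 and 2.86 FPKM. Ndufs1, the largest core subunit, overlapped between groups at 252 and 371 against 187 and 287 FPKM. Ndufb7, an accessory subunit with the longest annotated transcript of the complex (4435 bases), read 348 and 518 against 214 and 324 FPKM without overlap. In all, 8 of the 37 complex I genes lay lower in both UAB126 libraries than in either vehicle library and none lay higher, where 26.9% and 22.7% of all tested genes did so, and the lower share is no larger than that background.

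Complex II, succinate dehydrogenase, is the one complex with no mitochondrially encoded subunit, and it also belongs to the citric acid cycle. Its flavoprotein Sdha (mm10 chr13:74322254-74350280, minus strand) read 209 and 190 FPKM with vehicle and 231 and 220 FPKM with UAB126. Both UAB126 libraries were above both vehicle libraries, and vehicle replicate 2 was here the lowest library rather than the highest. The difference was 0.18 with a standard error of 0.22 (limma adjusted p = 0.714), and it was positive under each scaling. The iron-sulfur subunit Sdhb, the most abundant of the 4, overlapped at 416 and 590 against 322 and 509 FPKM, with a difference of -0.29 that turned to 0.12 after quantile normalization and 0.04 with the length trend removed. The membrane anchors Sdhc and Sdhd differed by -0.18 and 0.13, and Sdhc turned to 0.17 after quantile normalization.

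In complex III, the cytochrome bc1 complex, differences ran from -0.95 to 0.18 over 7 genes. Uqcrb, known as the ubiquinone-binding protein (mm10 chr13:66900617-66905378, minus strand), read 563 and 1001 FPKM with vehicle and 435 and 377 FPKM with UAB126, with no overlap and with a difference of -0.89 (limma adjusted p = 0.372). It was also 1 of the members whose transcript is partly repeated elsewhere: 29.1% of its 75-base windows occur in 3 other genes, and the effect on its level was not tested. Uqcr11, a very small subunit, read 782 and 1582 against 414 and 806 FPKM, a difference of -0.95 with overlapping groups. The small subunits Uqcr10 and Uqcrh differed by -0.44 and -0.45 with overlap, and with the length trend removed they turned to 0.21 and 0.06. The core protein Uqcrc2 read 176 and 188 FPKM with vehicle and 186 and 229 FPKM with UAB126, a difference of 0.18, positive under each scaling. The Rieske iron-sulfur protein Uqcrfs1 differed by 0.04, and the other core protein, Uqcrc1, by -0.07, which became 0.30 after quantile normalization and 0.01 with the length trend removed.

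In complex V, ATP synthase, differences ran from -0.96 to 0.26 over 13 tested genes. Atp5a1, the alpha subunit, read 548 and 543 FPKM with vehicle and 636 and 677 FPKM with UAB126, so both UAB126 libraries were above both vehicle libraries. The difference was 0.26 with a standard error of 0.24 (limma adjusted p = 0.615), and it was positive under each scaling. Atp5b, the catalytic beta subunit, differed by 0.02, at 1103 and 1449 against 1106 and 1486 FPKM. The epsilon subunit Atp5e read 620 and 1601 FPKM with vehicle and 311 and 836 FPKM with UAB126. Vehicle replicate 2 was 2.58 times vehicle replicate 1, the groups overlapped, and the difference of -0.96 had a standard error of 0.65. Atp5k, the most abundant member of the complex, read 1033 and 2238 against 697 and 1756 FPKM, with a difference of -0.46 that turned positive after quantile normalization (0.08) and with the length trend removed (0.16).

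The 3 genes for the c subunit of the membrane ring encode the same mature protein. Atp5g3 supplied nearly all of the measured level, at 608 and 710 FPKM with vehicle and 477 and 757 FPKM with UAB126, and its difference of -0.13 became 0.35 under both quantile normalization and removal of the length trend. Atp5g1 read between 3.64 and 6.81 FPKM, and Atp5g2 was listed at 0 in all 4 libraries. That exact 0 can be a failed estimate, so the part of Atp5g2 in the c subunit transcripts is not known. Atp5l, a subunit of the membrane part, was listed at 0 in both vehicle libraries and at 0.133 and 0.189 FPKM with UAB126, and 63.4% of its windows occur in 9 other genes. Cox7c in complex IV, also at a low level, shared 25.0% of its windows. Atp5h, with 36.5% shared, averaged 235 FPKM, and Ndufb4, with 35.2% shared, averaged 19.2 FPKM. The part of shared windows in the low values of Atp5l and Cox7c was not tested, and those values remain uncertain. Of the 92 members, 62 shared no 75-base window with another gene.

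Cytochrome c oxidase, complex IV, held both the most abundant member and the largest differences. Cox4i1, the common form of subunit 4, read 2053 and 3174 FPKM with vehicle and 1704 and 2321 FPKM with UAB126, with overlap and a difference of -0.36 that turned to 0.30 after quantile normalization and 0.16 with the length trend removed. Cox5b, which binds zinc, did not overlap between groups, at 1114 and 2029 against 717 and 1088 FPKM, and Cox6c did not either, at 639 and 1315 against 415 and 629 FPKM. Cox6c differed by -0.84 with a standard error of 0.44 (limma adjusted p = 0.435).

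Several complex IV subunits come in tissue forms, and the muscle-type forms Cox6a2, Cox7a1 and Cox8b gave the largest differences of all members. Cox8b (mm10 chr7:140898945-140900446, minus strand) read 9.62 and 93.7 FPKM with vehicle and 1.02 and 4.004 FPKM with UAB126. Cox6a2 (chr7:128205435-128206387, minus strand) read 28.6 and 154 against 4.99 and 14.7 FPKM. Cox7a1 (chr7:30184144-30186078, plus strand) read 22.2 and 85.2 against 5.53 and 17.2 FPKM. All 3 had the same library order, with vehicle replicate 2 far above the rest and UAB126 replicate 1 lowest. Vehicle replicate 2 was highest and UAB126 replicate 1 lowest for 64 of the 88 tested members. In none of the 3 did the groups overlap.

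The difference was -3.32 with a standard error of 1.06 for Cox8b (limma adjusted p = 0.314), -2.80 with 0.86 for Cox6a2 (0.306) and -2.04 with 0.75 for Cox7a1 (0.349). None passed the threshold. The spread within the vehicle pair was of like size, since vehicle replicate 2 was 9.74 times vehicle replicate 1 for Cox8b, 5.38 times for Cox6a2 and 3.84 times for Cox7a1. Without vehicle replicate 2 the differences were -1.74, -1.61 and -1.09. Without vehicle replicate 1 they were -4.895, -3.998 and -2.985, and all 3 then passed (adjusted p = 0.00384, 0.0116 and 0.0401), with the lone vehicle library assumed to vary like the rest. After quantile normalization they were -3.22, -2.71 and -1.94, and with the length trend removed -2.61, -2.24 and -1.37.

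The common partners of these forms were far more abundant and overlapped between groups. Cox8a read 679 and 892 FPKM with vehicle and 502 and 806 FPKM with UAB126, and its difference of -0.29 turned to 0.22 after quantile normalization and 0.34 with the length trend removed. Cox6a1 read 1028 and 1404 against 781 and 1292 FPKM, a difference of -0.26 that became 0.18 and 0.33. Cox7a2 read 208 and 330 against 182 and 341 FPKM, a difference of -0.07 that became 0.27 and 0.50. As a share of the summed FPKM of the pair, Cox8b made up 1.40% and 9.51% with vehicle and 0.204% and 0.495% with UAB126. The Cox6a2 share was 2.71% and 9.88% against 0.635% and 1.13%, and the Cox7a1 share 9.64% and 20.5% against 2.95% and 4.79%. These shares compare 2 short transcripts within 1 library, and for each pair both UAB126 libraries lay below both vehicle libraries.

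Of 8 listed muscle markers, 7 had a row of their own. Vehicle replicate 2 was the highest library for all 7 and UAB126 replicate 1 the lowest for 5. Over all tested genes 22.8% had both. Both UAB126 libraries lay below both vehicle libraries for 5 of the 7, where 26.9% of all tested genes did so. Only 2 of the 7, Ckm and Acta1, were tested. The others of those 5 (Myh1, Tnnt3 and Actn3) read at most 0.517 FPKM in any library, near the floor. The summed level of the 7, mostly Ckm and Acta1, was 13.6 and 76.2 FPKM with vehicle and 0.552 and 4.31 FPKM with UAB126. Ckm, muscle creatine kinase, read 11.1 and 56.6 FPKM against 0.342 and 2.09 FPKM, and Acta1, skeletal alpha-actin, read 2.195 and 17.4 against 0.152 and 0.923 FPKM. Both were lower in each UAB126 library than in either vehicle library, by -3.70 (limma adjusted p = 0.227) and -2.36 (0.335). The myosin heavy chains Myh1 and Myh4 stayed at or below 0.106 FPKM in every library, and Myl1, a myosin light chain, overlapped at 0.102 and 1.17 against 0.036 and 1.16 FPKM. In fat markers, Cfd read 213 and 51.2 against 2.54 and 19.6 FPKM with vehicle replicate 1 highest, Adipoq lay between 2.09 and 4.47 FPKM, and Ucp1, the marker of brown fat, was listed at 0 throughout. The part of other tissue in the levels of Cox6a2, Cox7a1 and Cox8b was not tested, and in a bulk sample fewer cells of a type and less RNA per cell cannot be told apart.

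**Figure D4:**
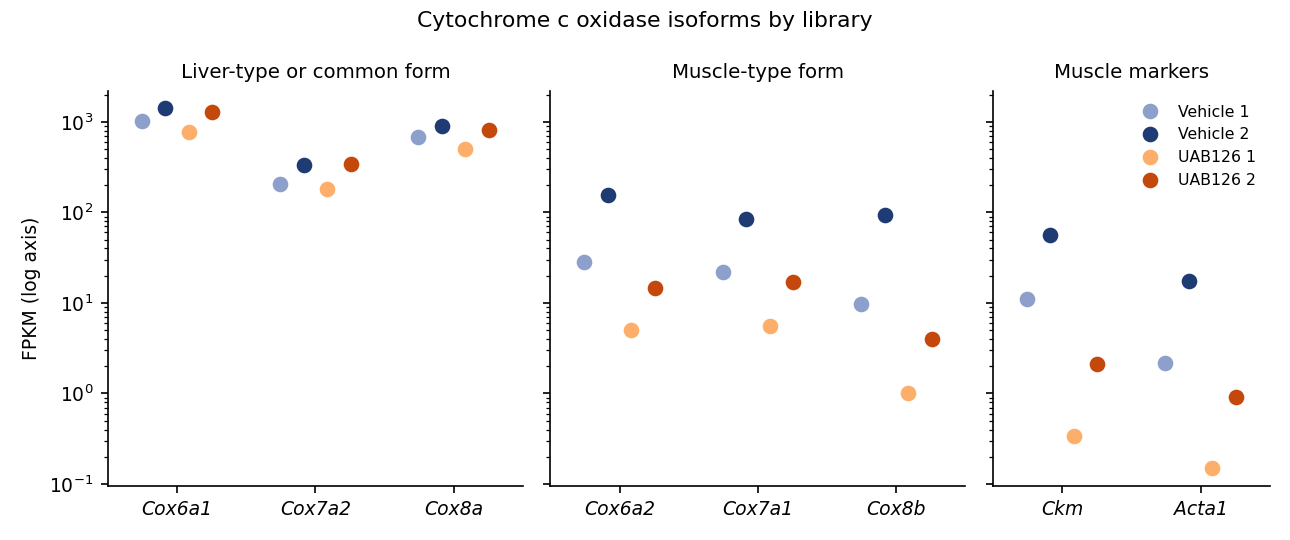
FPKM on a log axis in each of the 4 libraries for the common forms of subunits 6a, 7a and 8 of cytochrome c oxidase, for their muscle-type forms and for the muscle markers Ckm and Acta1. The common forms overlap between groups, whereas the muscle-type forms and both markers do not. For each muscle-type form and both markers vehicle replicate 2 is the highest library and UAB126 replicate 1 the lowest. The common forms Cox6a1 and Cox8a have that order too.

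Of the remaining tissue forms, Cox4i2, a form best known from lung, read 0.366 and 4.79 FPKM with vehicle and 0.253 and 0.479 FPKM with UAB126, so its level rested on vehicle replicate 2. Cox6b2, a testis form, ran the other way at 0.925 and 0 FPKM against 1.13 and 3.07 FPKM. Its common partner Cox6b1 overlapped at 932 and 1618 against 613 and 1262 FPKM, a difference of -0.48 that turned to 0.11 with the length trend removed. The testis forms Cox7b2 and Cox8c were listed at 0 in all 4 libraries, whereas the common Cox7b read 377 and 612 against 240 and 449 FPKM. Cox7a2l, known for a role in supercomplexes of complexes III and IV that was not examined here, overlapped at 50.3 and 96.9 against 43.9 and 66.9 FPKM.

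The sequences before the start sites of 2 such pairs are shown because the muscle-type forms did not overlap between groups while their partners did. Each is the 200 bases before the RefSeq start (GRCm38.p6), 5′ to 3′ on the gene's strand, with CG dinucleotides in capitals, at chr7:140900447-140900646 (minus) for Cox8b, chr19:7217617-7217816 (minus) for Cox8a, chr7:30183971-30184170 (plus) for Cox7a1 and chr9:79759854-79760053 (minus) for Cox7a2.
Cox8b: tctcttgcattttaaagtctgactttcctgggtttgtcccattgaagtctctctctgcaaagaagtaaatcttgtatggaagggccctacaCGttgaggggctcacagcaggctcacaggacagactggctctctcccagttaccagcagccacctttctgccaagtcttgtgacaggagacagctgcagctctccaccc
Cox8a: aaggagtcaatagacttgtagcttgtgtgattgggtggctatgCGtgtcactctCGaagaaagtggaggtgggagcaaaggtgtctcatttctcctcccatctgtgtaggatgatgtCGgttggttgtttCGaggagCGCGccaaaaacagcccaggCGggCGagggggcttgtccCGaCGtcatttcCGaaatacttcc
Cox7a1: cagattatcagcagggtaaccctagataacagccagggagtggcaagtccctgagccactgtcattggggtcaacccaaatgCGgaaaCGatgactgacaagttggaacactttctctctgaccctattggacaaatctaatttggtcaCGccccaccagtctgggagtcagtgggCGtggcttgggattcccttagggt
Cox7a2: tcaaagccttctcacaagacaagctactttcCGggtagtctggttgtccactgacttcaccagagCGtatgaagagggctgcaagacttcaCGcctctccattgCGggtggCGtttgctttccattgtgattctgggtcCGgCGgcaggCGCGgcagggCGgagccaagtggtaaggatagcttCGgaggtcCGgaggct
The stretch before Cox8b holds 1 CG dinucleotide and that before Cox7a1 holds 4, whereas those before Cox8a and Cox7a2 hold 11 and 12. In the full 300-base windows (250 bases before to 50 after the start) the counts were 2 for Cox8b and 7 for Cox7a1 against 19 for Cox8a and 20 for Cox7a2, with medians of 19.5 over the 74 members that had a window, 21 over tested symbols and 7 over all 27025 windows.

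The letters of the NRF1, GABP, TATA, E-box and MEF2 motifs were searched on both strands of those windows. The first 2 are known from respiratory chain promoters. The core of the NRF1 site, CGCATGCG, occurred in 10 of 74 members (13.5%), in 4.13% of tested symbols and in 1.91% of all windows. The ETS-family core used by GABP, CCGGAAG, occurred in 18 of 74 (24.3%), in 19.1% of tested symbols and in 9.12% of all windows. The TATA letters occurred in 9.46% of members and 7.22% of tested symbols, the E-box letters CAGCTG in 8.11% and 14.6%, and the MEF2 letters in 2.70% and 2.81%. Cox8b held 1 TATA match and 2 E-box matches, and Cox8a held 2 ETS-family matches. Cox7a1 and Cox7a2 held no match to any of these motifs. A match is a description of letters and not a binding site. Of the 10 members with the NRF1 core, 8 were tested, and their differences as deposited ran from -0.95 for Uqcr11 to 0.02 for Ndufaf4 with a median of -0.36, the same to 2 decimals as over the 63 tested members with a window and no such core.

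The 11 assembly factors that share the prefixes were far less abundant than the subunits, with a median of the means of 19.4 FPKM against 202 FPKM in complex I. Ndufaf2, which helps to build complex I, read 30.9 and 49.99 FPKM with vehicle and 23.2 and 24.3 FPKM with UAB126, with no overlap and a difference of -0.70 with a standard error of 0.27 (limma adjusted p = 0.370). Of the 11, 5 lay lower in both UAB126 libraries and none higher (26.9% and 22.7% of all tested genes), and Ndufaf7 differed by 0.03. Sdhaf2, which helps to attach the flavin of complex II, read 9.67 and 12.7 against 8.01 and 8.89 FPKM, and Atp5sl, the most abundant of the 11, overlapped at 38.8 and 42.7 against 25.5 and 42.7 FPKM. The 31 tested assembly factors outside the prefixes had a median of -0.22 (21 negative), which became -0.07 after quantile normalization and 0.05 with the length trend removed. Of these, 9 lay lower and 4 higher without overlap (26.9% and 22.7% of all tested genes). The lower share is near that background and the higher share is below it. In the limma test 0 passed and 6 had an unadjusted p under 0.05, as did 13.4% of all tested genes. Among these factors, Cox10 and Cox15, which make heme A for complex IV, were higher in both UAB126 libraries. Cox10 read 4.81 and 4.94 against 7.71 and 7.98 FPKM, a difference of 0.59, and Cox15 read 6.69 and 4.201 against 10.4 and 8.98 FPKM, a difference of 0.75, with adjusted p values of 0.277 and 0.315. Cox19, a copper-handling factor, read 116 and 134 against 53.4 and 85.4 FPKM.

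Among other genes of mitochondrial energy metabolism, the 17 genes of the citric acid cycle and pyruvate dehydrogenase had a median of 0.09 (0.38 after quantile normalization, 0.11 with the length trend removed), with 5 higher and 2 lower without overlap (22.7% and 26.9% of all tested genes). Their longest transcripts spanned 1606 to 4127 bases, longer than those of most members, and the difference from the members was not tested. Citrate synthase, Cs, read 66.1 and 67.1 FPKM with vehicle and 103 and 97.8 FPKM with UAB126, a difference of 0.59 (limma adjusted p = 0.323). Idh3a, a subunit of isocitrate dehydrogenase, read 16.3 and 23.8 against 30.2 and 33.8 FPKM, and Dlat, of pyruvate dehydrogenase, 13.9 and 14.6 against 19.0 and 20.6 FPKM. None of the 17 passed the limma test and 3 had an unadjusted p under 0.05, all of them higher, where 5.03% of all tested genes were.

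Among 19 tested regulators of mitochondrial genes the median was 0.14 (0.17 and 0.12 under the same scalings), with 5 higher and 4 lower without overlap, about the 22.7% and 26.9% of all tested genes. Lonp1, the protease that removes damaged matrix proteins, read 73.4 and 74.9 FPKM with vehicle and 133 and 148 FPKM with UAB126. Its libraries lay close together within each group, the difference was 0.91 with a standard error of 0.21, and it did not pass (limma adjusted p = 0.234). The PGC-1-related coactivator Pprc1 read 1.81 and 2.18 against 3.84 and 3.48 FPKM, and Tfb1m, which methylates mitochondrial ribosomal RNA, 13.9 and 14.1 against 9.31 and 10.8 FPKM. Of these 19, 2 had an unadjusted p under 0.05 (Lonp1 and Pprc1).

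In the remaining respiratory chain list, which holds cytochrome c, electron-transfer flavoprotein and ubiquinone synthesis genes, 19 tested genes had a median of -0.01 (0.07 under both scalings), with 2 higher and 5 lower without overlap (22.7% and 26.9% of all tested genes) and none past limma's test at an adjusted or an unadjusted p of 0.05. Atpif1, the inhibitor of ATP synthase run in reverse, read 55.2 and 104 FPKM with vehicle and 32.3 and 51.3 FPKM with UAB126, a difference of -0.88. Adck3, a kinase-like protein of ubiquinone synthesis, read 99.6 and 94.2 against 68.1 and 69.3 FPKM, and Coq7 49.0 and 73.2 against 44.3 and 44.7 FPKM.

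Mitochondrially encoded subunits could be followed only in part. Of 13 such genes 6 had a row of their own, and mt-Nd3 and mt-Co2 were listed at 0 in all 4 libraries. mt-Co1 read 11642 and 8288 FPKM with vehicle, was listed at 0 in UAB126 replicate 1 and read 10672 FPKM in UAB126 replicate 2. These exact zeros can be failed estimates. mt-Cytb read 17363 and 13759 against 17913 and 16311 FPKM. mt-Nd5 read 2092 and 2672 against 4570 and 2531 FPKM, with UAB126 replicate 1 the highest library, unlike the order of the nuclear subunits. mt-Nd6 read 315 and 339 against 411 and 305 FPKM, and none of these 4 passed the limma test or an unadjusted p under 0.05.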

How the data were processed

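Liver RNA was poly(A)-selected and sequenced, per the labels' protocols. The submitters' processing notes name Trim Galore 0.4.1, STAR 2.5.1b, Cufflinks 2.2.1, Cuffdiff and the build mm10, with no order or settings. The deposited FPKM table holds 27216 rows, of which 3634 have no symbol and 595 name several genes; these were left out, and rows sharing a symbol were summed. The authors' gene models were not given in the sources used here. FPKM carry no counts, so log2(FPKM + 1) was tested with limma 3.58.1 (R 4.3.3, eBayes with trend, 2 against 2 libraries) over symbols averaging 1 FPKM or more, with Benjamini-Hochberg adjustment, after a check on simulated data. Transcript lengths and coordinates came from the GENCODE annotation of GRCm38, promoters from RefSeq. Length trends were removed by lowess (span 0.3).

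The members and lists were chosen with earlier results of these data known. Members named singly were, in each complex, the most abundant, those with the largest and smallest difference and the longest, with the tissue isoforms (1 is not reported here); in related lists, up to 3 with the smallest p. Genes named beyond that rule (Ndufs6, Ndufs1, Uqcrb, Uqcr10, Uqcrh, Uqcrfs1, Ndufaf4, Ndufa1, Cox5b, Cox7c, Atp5b, Atp5l, Sdhd, mt-Cytb, and markers) were chosen after their values were seen, for their role or lack of overlap. Alternatives covered the pseudocount, filter, scaling, prior, replicate block and each library left out.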

Additional observations from a re-analysis of the deposited data

How the results depend on the processing

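Each group had 2 libraries, and the depth in counts is unknown. The number of genes past the threshold over the whole table was 15 by limma. It was 27 with a pseudocount of 0.1, 0 without the filter on low values and 24 after quantile normalization. With single-row symbols it was 23. It was also 23 with the trend of the median coding transcript removed, an alternative chosen after seeing the data. Leaving out 1 library gave 0 to 442 genes and 0 to 4 members; the 4 (Cox4i2, Cox6a2, Cox7a1 and Cox8b) passed without vehicle replicate 1. With the replicate block 148 genes and 2 members passed (Cox6a2, limma adjusted p = 0.0405, and Cox7a1, 0.0316). The block rests on 2 pairs, whose deviations correlated at 0.18, so pairing is not established. Without vehicle replicate 2 the members' median was -0.07, without UAB126 replicate 1 -0.03, without vehicle replicate 1 -0.62 and without UAB126 replicate 2 -0.66.

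Complex medians moved as follows, and the cause was not tested: after quantile normalization, complex II 0.33, complex V 0.080 and other genes in the length range -0.0059; with the length trend removed, complex III 0.057, complex V 0.074 and the others 0.0024. With 1 library left out, complex V ranged from -0.60 to 0.086 and complex II from -0.24 to 0.092. The others' median of -0.08 was -0.18 within the 10th to 90th percentile of member lengths and -0.32 at 50 FPKM or more (chosen after seeing the data).

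Of 32 members named, 19 kept their sign under up to 13 alternatives. Signs turned after quantile normalization for Atp5g3 (0.35), Atp5k (0.080), Cox4i1 (0.30), Cox6a1 (0.18), Cox7a2 (0.27), Cox8a (0.22), Sdhb (0.12), Sdhc (0.17) and Uqcrc1 (0.30). With the length trend removed they turned for Atp5g3 (0.35), Atp5k (0.16), Cox4i1 (0.16), Cox6a1 (0.33), Cox6b1 (0.11), Cox7a2 (0.50), Cox7a2l (0.013), Cox8a (0.34), Sdhb (0.044) and Uqcrc1 (0.0095), and by median coding transcript for Atp5g3 (0.077), Cox7a2 (0.14), Sdhc (0.016) and Uqcrc1 (0.15). With 1 library left out the ranges that crossed 0 were Ndufaf7 -0.032 to 0.084, Atp5k -1.12 to 0.21, Cox7a2 -0.53 to 0.38, Cox7a2l -0.83 to 0.10, Uqcrc1 -0.31 to 0.17, Atp5g3 -0.46 to 0.21, Atp5sl -0.65 to 0.069, Cox6a1 -0.62 to 0.10, Cox6b1 -1.001 to 0.040, Cox8a -0.63 to 0.050, Sdhb -0.62 to 0.037 and Sdhc -0.41 to 0.039.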
